A study of Mus musculus with 2 samples.

Results

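Alcam and Cd6, the receptor that T cells carry for it, with Cd5, the neighbouring relative of Cd6, were followed through the cells of popliteal lymph nodes (PLNs) by single-cell RNA sequencing (scRNAseq). The 3 genes were taken by symbol from the 32285 genes listed for both libraries, and no cell was chosen by any of the 3. Alcam (activated leukocyte cell adhesion molecule, CD166) is a membrane protein of the immunoglobulin superfamily that antigen-presenting cells display and that binds CD6 on T cells as well as other ALCAM molecules. CD6 and CD5 are scavenger receptor cysteine-rich receptors that sit at the contact between a T cell and its partner. CD5 dampens signalling through the T cell receptor, its level on a T cell is set in the thymus by how strongly that receptor recognises self, and it also marks the B1a kind of B cell.

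The nodes came from male TNF-Tg mice on the C57BL/6 background, which carry a TNF transgene and develop inflammatory-erosive arthritis, and no wild-type node was compared here. The Early library was made from mice 5 to 6 months of age and the Advanced library from mice over 8 months of age. Each was made from the 6 PLNs of 3 mice in a single pool, so each stage had 1 library. Age and stage of arthritis cannot be told apart in this design. There was therefore no replicate error, no difference between the stages was tested, and every interval below is an exact 95% interval that covers counting error only.

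After filtering, 8221 Early and 8183 Advanced cells remained, with medians of 6643 and 7837 unique molecular identifiers (UMIs) per cell, and 20 cell barcodes occurred in both libraries. Cells were assigned to gates by raw UMIs of marker genes, and the level of a gene in a gate is its summed UMIs per 1000000 UMIs of those cells (CPM). The B gate held 7562 Early and 5834 Advanced cells, the T gate 164 and 1111, the monocyte gate 119 and 195, the dendritic gate 60 and 119, and the plasmacytoid gate 38 and 44. All 5 check genes of the T, B, monocyte and plasmacytoid gates, and 5 of the 6 of the dendritic gate, were higher inside the gate than outside it in both libraries, H2-DMb2 being the exception. The check genes of the regulatory, helper and NK-gene T subsets were all higher in their subset in both libraries. A gate for macrophages, set on C1qa, C1qb, C1qc and Mertk, found 0 Early and 3 Advanced cells, and these genes were at or near 0 in the monocyte gate, at 0 UMIs in Early and 13 UMIs in Advanced. Other genes that macrophages share were read in the monocyte gate. Adgre1 stood at 133 and 144 CPM, Cd68 at 218 and 285 CPM and Aif1 at 177 and 115 CPM. Hmox1 stood at 101 and 78.5 CPM and Marco at 10.5 and 1.38 CPM. Mrc1 had 0 UMIs in Early and 3 in Advanced there, Siglec1 had 0 and 6, and Vsig4 had 0 in both. The part of these genes in the monocyte values was not tested. Cells with markers of 2 lineages, 67 in Early and 292 in Advanced, were kept apart from every gate.

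On GRCm38, the assembly that mm10 names, Alcam occupies chr16:52248996-52454074 on the minus strand. Cd5 lies at chr19:10717116-10739002 and Cd6 at chr19:10789341-10830058, both on the minus strand, with 50338 bases and a noncoding gene, A430093F15Rik, between them. No other annotated gene overlaps any of the 3. Promoter windows of 300 bases, from 250 before to 50 after the RefSeq start, were found for Alcam (chr16:52453032-52453331) and Cd5 (chr19:10738925-10739224) in the GRCm38.p6 table, and are printed 5′ to 3′ on the gene's strand. They are shown because the 2 genes were read from such different cells. The whole Alcam window lies inside the annotated span above, whose 5′ end is at 52454074, so the 2 annotations place the start differently. The Cd5 window spans the annotated 5′ end of Cd5, at 10739002. Capitals mark matches, on either strand, to an ETS core (AGGAAG), an E-box (CAGGTG), a GC box (GGGCGG) and a CCAAT box (CCAAT).
Alcam promoter: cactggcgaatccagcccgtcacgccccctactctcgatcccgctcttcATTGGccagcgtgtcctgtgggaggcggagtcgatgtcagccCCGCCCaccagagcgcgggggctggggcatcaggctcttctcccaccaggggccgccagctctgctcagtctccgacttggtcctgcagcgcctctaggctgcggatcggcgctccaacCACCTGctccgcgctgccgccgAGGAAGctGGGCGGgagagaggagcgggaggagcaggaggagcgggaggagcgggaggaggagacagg
Cd5 promoter: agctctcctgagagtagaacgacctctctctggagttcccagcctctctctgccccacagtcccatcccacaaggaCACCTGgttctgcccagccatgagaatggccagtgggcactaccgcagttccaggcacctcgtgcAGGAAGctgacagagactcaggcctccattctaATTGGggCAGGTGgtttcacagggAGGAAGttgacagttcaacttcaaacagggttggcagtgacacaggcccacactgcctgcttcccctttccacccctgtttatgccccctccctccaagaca

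The Alcam window was 69.7% G and C, against 57.3% for Cd5 and a median of 53.0% over 32544 RefSeq windows of the same length. It held 2 GC boxes, while the Cd5 window held 0, and 35.9% of all windows hold at least 1. The Cd5 window held 2 E-boxes and 2 ETS cores, and the Alcam window 1 of each. An E-box occurs in 20.3% of all windows, an ETS core in 35.1% and a CCAAT box, of which each window held 1, in 37.4%. None of these matches overlapped another. The letters of a RUNX site (TGTGGT) and a TCF site (CTTTGA), held by 16.7% and 16.0% of windows, were in neither. A match describes the letters and was not shown to be a bound site.

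Alcam was read most densely in dendritic cells, at an intermediate level in monocytes, plasmacytoid dendritic cells and plasma cells, and at a low level in B cells. In dendritic cells it stood at 99.8 CPM in Early (83.1 to 119, 125 UMIs) and 83.0 CPM in Advanced (72.6 to 94.5, 229 UMIs). In monocytes it stood at 60.2 CPM (48.8 to 73.4) and 73.4 CPM (62.4 to 85.7). Plasmacytoid cells, which are known for type I interferon, had 44.3 and 65.7 CPM, and plasma cells, the antibody-secreting end of the B lineage, had 41.7 and 47.6 CPM. B cells had 10.0 CPM (9.21 to 10.9) in Early and 12.2 CPM (11.3 to 13.2) in Advanced. The order from dendritic to monocyte to plasmacytoid to plasma cells was the same in both libraries, but only the step from dendritic cells to monocytes in Early exceeded the counting intervals. Plasma cells stood above the T, Dntt and B gates by more than the counting intervals in both libraries.

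**Figure D1:**
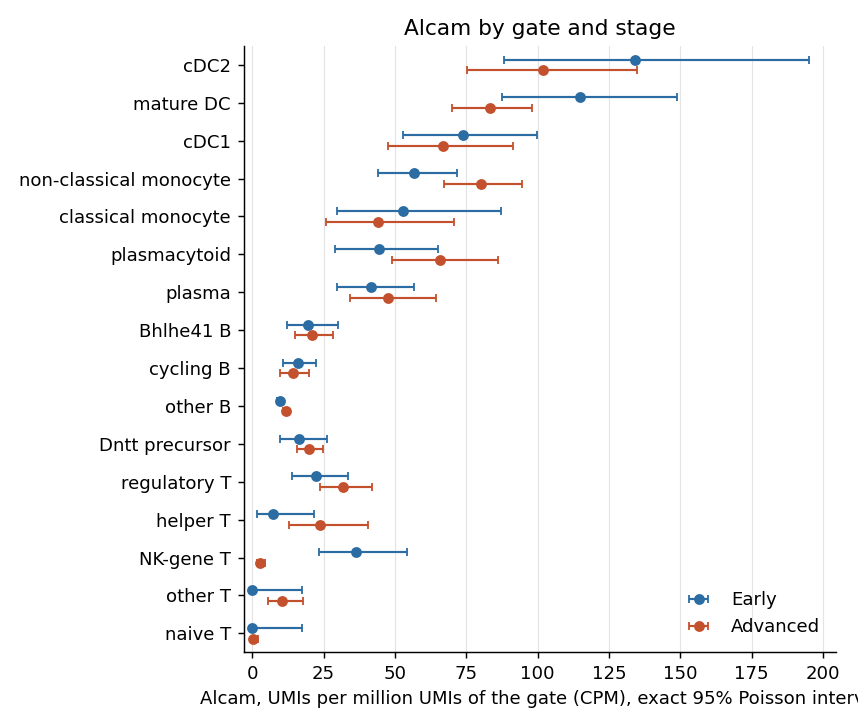
Alcam level in UMIs per 1000000 UMIs of each gate, on a linear axis, at each stage, with a point per library for the summed level and bars for the exact 95% Poisson interval. The cDC2 and mature dendritic cells lie furthest right, from 83.2 to 134 CPM. The cDC1 cells lie at 73.7 and 66.9 CPM and non-classical monocytes at 56.8 and 80.0 CPM. B cells outside the cycling and Bhlhe41 groups lie at 9.61 and 11.7 CPM, and naive T cells lie at 0 and 0.357 CPM.

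Set against B cells of the same library, dendritic cells had 9.97 times the Alcam level in Early (8.15 to 12.1) and 6.80 times in Advanced (5.82 to 7.93). For monocytes the ratio was 6.01 in both, with intervals of 4.80 to 7.47 and 5.02 to 7.17. The share of cells with at least 1 Alcam UMI was 68.3% of dendritic cells and 42.0% of monocytes in Early, and 70.6% and 45.6% in Advanced. Naive T cells gave the background for such shares: 0 of 19 Early and 1 of 268 Advanced naive T cells had an Alcam UMI, at median depths of 10343 and 10299 UMIs per cell. The Early dendritic cells and monocytes had medians of 17704 and 11240 UMIs, and the Advanced ones 19438 and 8729. When each cell was thinned to 3000 UMIs, leaving out from 1 to 5 shallower cells per gate, Alcam was seen in 22.0% and 18.6% of dendritic cells and in 13.2% and 16.0% of monocytes. The same thinning left it in 2.80% of Early and 3.41% of Advanced B cells, with 86 and 139 shallower cells left out.

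Within the dendritic gate, cDC2 cells, marked by Cd209a and Clec10a and known for priming CD4 T cells, had 134 CPM of Alcam in Early and 102 CPM in Advanced. Mature dendritic cells, marked by Fscn1 and Ccl22, had 115 and 83.2 CPM, and cDC1 cells, marked by Xcr1 and Clec9a and known for cross-presentation to CD8 T cells, had 73.7 and 66.9 CPM. The cDC2 level exceeded the cDC1 level 1.82-fold in Early (1.08 to 3.03) and 1.53-fold in Advanced (0.979 to 2.39), from 11 to 19 cells of each kind per library. In Advanced all 17 cDC1 cells had an Alcam UMI, at a median of 33775 UMIs per cell against 24976 in cDC2 cells, and thinned to 3000 UMIs the shares were 17.6% of cDC1 and 27.8% of cDC2 cells. Non-classical monocytes, which patrol vessel walls and are marked by Ace and Adgre4, numbered 101 in Early, of 119 monocytes, and 166 in Advanced, of 195. Their Alcam level was 56.8 CPM in Early and 80.0 CPM in Advanced. The classical monocytes, marked by Ly6c2 and Ccr2, had 52.9 CPM in 11 Early cells and 44.1 CPM in 23 Advanced cells.

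Between the stages, no antigen-presenting gate moved Alcam past 2-fold. The Advanced over Early ratio was 1.22 in monocytes (0.942 to 1.59), where 5.64% of the 8847 genes with at least 20 UMIs passed 2-fold in either direction. It was 0.831 in dendritic cells (0.666 to 1.04), where 7.49% of 9275 genes passed, and 1.48 in plasmacytoid cells (0.908 to 2.47), where 8.55% of 6526 genes passed. Each of these intervals holds 1, but with stricter gates the dendritic ratio was 0.795 (0.635 to 0.998). The dendritic gate held 33 mature and 16 cDC1 cells in Early, and 83 and 17 in Advanced. The part of this mix in its ratio was not tested. In non-classical monocytes the ratio was 1.41 and its interval, 1.05 to 1.91, lay above 1. In mature dendritic cells it was 0.722 and its interval, 0.527 to 0.999, ended just under 1. The plasmacytoid ratio leaned on 1 Advanced cell, which held 15 of the 52 UMIs, and was 1.17 without the top cell of each library. It was 0.938, the other side of 1, with each cell weighted equally, and 1.64 (1.12 to 2.45) with stricter gates.

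B cells held most of the Alcam molecules of the node in Early although their level per cell was low. Of 989 Early Alcam UMIs, 58.1% lay in B cells, 12.6% in dendritic cells and 9.81% in monocytes. Of 1532 Advanced UMIs, 40.1% lay in B cells, 14.9% in dendritic cells, 10.4% in monocytes and 11.2% in the cells with markers of 2 lineages. An Alcam UMI was seen in 457 of 7562 Early and 474 of 5834 Advanced B cells, 6.04% and 8.12%. The Advanced over Early ratio in B cells was 1.22 (1.09 to 1.37), while 4.73% of 13582 genes passed 2-fold there. The median gene of the gate moved by 0.09 on the log2 scale, and 29.9% of the genes were below 1. With TMM factors, which set the totals from the bulk of the genes, the Alcam ratio was 1.14. The small group of B cells with Bhlhe41, a transcription factor of B1 cells, had 19.5 and 21.0 CPM of Alcam, which was 2.03 times (1.25 to 3.14) and 1.79 times (1.28 to 2.45) the level of the remaining B cells. Of the 5 check genes of that group, 4 were higher in it in both libraries, and Ctla4 was not in Advanced. Cycling B cells had 15.9 and 14.2 CPM.

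**Figure D2:**
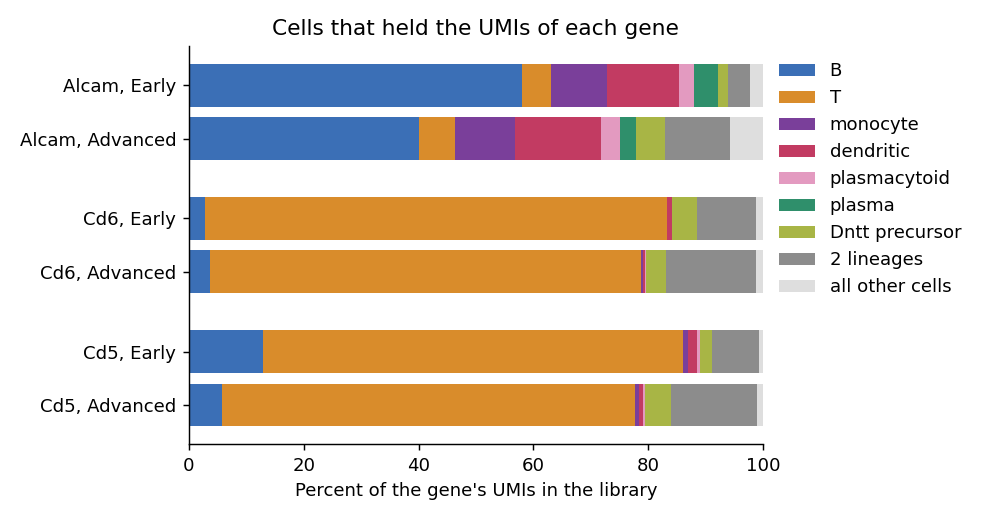
Percent of all UMIs of Alcam, Cd6 and Cd5 that lay in each gate, as stacked horizontal bars that add up to 100, for each library. B cells hold 58.1% of the Early and 40.1% of the Advanced Alcam UMIs, whereas T cells hold 72.0% to 80.5% of the Cd6 and Cd5 UMIs.

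The precursor gates were small or mixed. Cells with Vpreb1 and Igll1, the genes of the surrogate light chain that pre-B cells use, numbered 3 in Early and had 0 Alcam UMIs, against a floor of 69.5 CPM for 3 counts. The 54 Advanced cells of this gate had 15.4 CPM (9.38 to 23.7), from 20 UMIs in 6 cells. Cells with Dntt and Rag1, the genes of antigen receptor assembly, numbered 55 and 220 and had 16.5 and 19.8 CPM. This gate held cells of several lineages, so it was split after its values had been seen. The Dntt cells that also carried the plasmacytoid markers Siglech, Klk1 or Cox6a2 had 28.9 CPM of Alcam in Early (27 cells) and 35.8 CPM in Advanced (57 cells), and those that carried Cd3 chains had 2.06 and 3.90 CPM. The Cd3-bearing Dntt cells held 16 of the 17 Early and 41 of the 61 Advanced Cd6 UMIs of the gate.

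In T cells, Alcam was at or near 0 in the naive subsets and was read in regulatory, helper and NK-gene T cells. The 268 Advanced naive T cells held 1 Alcam UMI, 0.357 CPM, and the 19 Early ones held 0, against a floor of 14.1 CPM. Regulatory T cells, gated on Foxp3, had 22.3 CPM in Early (14.0 to 33.7) and 31.9 CPM in Advanced (23.7 to 41.9). Helper T cells, the CD4 cells with Icos, Pdcd1 or Cxcr5 among others, had 7.34 CPM in Early from 3 UMIs and 23.8 CPM in Advanced from 13 UMIs. In the regulatory T cells the markers of the monocyte gate summed to 5.06 CPM in Early and 8.13 CPM in Advanced. Those of the plasmacytoid gate summed to 1.01 and 3.75 CPM. No cell with 3 or more UMIs of the monocyte, dendritic or plasmacytoid markers enters the T gate. Such sums were therefore kept low by the gate itself. The dendritic markers were not summed in T cells, and the part of any of these cells in the Alcam level was not tested. The Advanced naive CD8 T cells, at a deeper median of 10996 UMIs against 6605 in regulatory T cells, had 0.550 CPM of Alcam.

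For the T gate as a whole Alcam was 19.1 CPM in Early (14.1 to 25.3) and 7.38 CPM in Advanced (97 UMIs), a ratio of 0.386 (0.271 to 0.556), where 14.7% of 11095 genes passed 2-fold, 624 upward and 1003 downward. With TMM factors, which set the totals from the bulk of the genes and moved every ratio of this gate by 0.25 on the log2 scale, that split was 1002 and 631. Of the 49 Early UMIs, 24 lay in 8 of 32 NK-gene T cells, a subset gated on Klrd1, Klrk1, Klra7, Klrc1, Xcl1 and Eomes, which had 36.5 CPM. The 468 Advanced cells of the subset had 2.86 CPM, from 19 UMIs in 10 cells, of which 9 lay in 1 cell. The subset ratio was 0.0785 (0.0406 to 0.149), and 0.156 (0.0497 to 0.646) without the 5% of cells with the most UMIs. The monocyte and plasmacytoid markers had 0 UMIs in the Early NK-gene T cells, where the gate also kept such sums low. The part of other cells in the Alcam level of this subset was not tested. When the Advanced subsets were weighted by their Early shares of T cell UMIs, the T gate stood at 17.7 CPM, 0.927 times Early. That value sums subsets whose levels differed in opposite directions, from 36.5 to 2.86 CPM in NK-gene T cells, from 22.3 to 31.9 CPM in regulatory, from 7.34 to 23.8 CPM in helper and from 0 to 10.5 CPM in unassigned T cells.

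Cd6, the receptor for ALCAM, was a T cell gene in both libraries. The T gate had 122 CPM in Early (109 to 137) and 100 CPM in Advanced (94.9 to 106), against 0.191 and 1.29 CPM in B cells. A Cd6 UMI was found in 59.8% of Early and 57.5% of Advanced T cells, and in 0.922% and 2.49% of the joined monocytes, dendritic, plasmacytoid and macrophage cells, at medians of 10606 and 10884 UMIs per T cell and 13833 and 13114 per joined cell. Thinned to 3000 UMIs, 28.3% and 24.9% of T cells kept one. No NK cell, of 6 Early and 17 Advanced, held a UMI of Cd6 or of Cd5.

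By subset, Cd6 was highest in regulatory T cells, at 149 CPM in Early (126 to 175) and 157 CPM in Advanced (138 to 178), and in helper T cells, at 144 and 152 CPM. Naive CD4 T cells had 145 CPM in Advanced (122 to 171), and their 5 Early cells gave 49.5 CPM from 2 UMIs. The lower group was made of naive CD8 T cells, at 81.5 and 85.3 CPM, NK-gene T cells, at 97.2 and 79.8 CPM, and gamma delta T cells, at 54.6 CPM in Advanced and 46.0 CPM in 5 Early cells. In Advanced the regulatory level was 1.84 times that of naive CD8 T cells (1.50 to 2.26) and 1.97 times that of NK-gene T cells (1.69 to 2.29). Regulatory and helper T cells were not told apart, at a ratio of 1.03 in both libraries. Naive CD4 T cells had 1.70 times (1.35 to 2.15) and helper T cells 1.78 times (1.35 to 2.34) the naive CD8 level in Advanced. Neighbours in the order nevertheless overlapped at every step, since the unassigned T cells, at 114 CPM in Early and 111 CPM in Advanced, lay between the upper and lower groups.

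**Figure D3:**
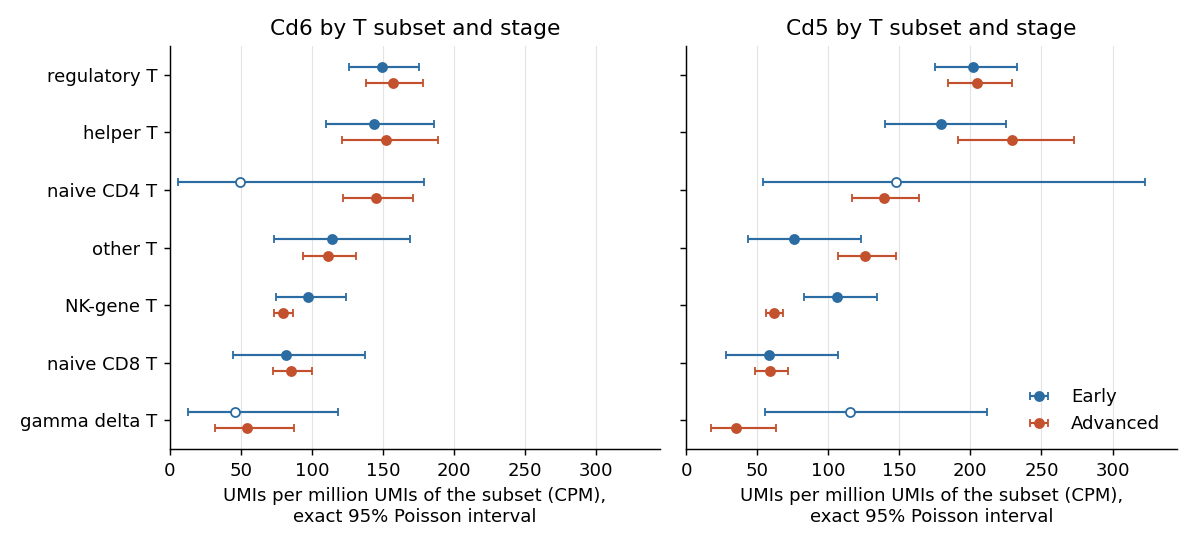
Cd6 and Cd5 levels in 7 T subsets, in UMIs per 1000000 UMIs of the subset on a linear axis, for both libraries, with exact 95% Poisson intervals and open circles for subsets under 10 cells. Regulatory and helper T cells lie highest for both genes, at 144 to 157 CPM for Cd6 and 179 to 229 CPM for Cd5, and naive CD8 T cells lie at 81.5 and 85.3 CPM for Cd6 and 58.2 and 59.4 CPM for Cd5.

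Cd5, which dampens the T cell receptor, had a similar order with wider steps. The T gate had 150 CPM in Early (136 to 166) and 97.2 CPM in Advanced (91.9 to 103), with a UMI in 67.7% and 51.2% of T cells and, thinned to 3000 UMIs, in 36.5% and 22.7%. Regulatory T cells had 202 CPM in Early (175 to 233) and 205 CPM in Advanced (184 to 229), and helper T cells had 179 and 229 CPM. Naive CD4 T cells had 139 CPM in Advanced, and their 5 Early cells gave 148 CPM from 6 UMIs. Naive CD8 T cells had 58.2 CPM in Early and 59.4 CPM in Advanced. The regulatory level was thus 3.48 times that of naive CD8 T cells in Early (1.85 to 7.36) and 3.45 times in Advanced (2.77 to 4.33). Naive CD4 exceeded naive CD8 T cells 2.34-fold in Advanced (1.80 to 3.04). In Advanced the steps from regulatory to naive CD4 T cells and from the unassigned T cells, at 126 CPM, to NK-gene T cells, at 61.9 CPM, exceeded the counting intervals.

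Between the stages, both receptors were lower over the whole T gate but not within most subsets. The Advanced over Early ratio was 0.818 for Cd6 (0.723 to 0.928) and 0.647 for Cd5 (0.577 to 0.727), neither past 2-fold, while the median gene of the gate moved by -0.19 on the log2 scale. The mix of T cells differed at the same time: regulatory T cells were 38.4% of Early and 13.8% of Advanced T cells, helper T cells 14.6% and 4.86%, and NK-gene T cells 19.5% and 42.1%. The Advanced subsets were then weighted by the Early mix, taken as shares of T cell UMIs. In Early these were 38.5% for regulatory, 15.9% for helper and 25.7% for NK-gene T cells. So weighted, the Cd6 level was 124 CPM, 1.01 times Early, and the Cd5 level was 149 CPM, 0.993 times Early. The Cd5 value sums subsets on both sides of 1, among them the unassigned T cells, at 75.9 CPM in Early and 126 CPM in Advanced, a ratio of 1.67 (0.994 to 2.98), where the Cd6 ratio was 0.976 (0.629 to 1.57). This weighting was chosen after the values had been seen.

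Within regulatory T cells the ratio was 1.05 for Cd6 (0.857 to 1.30) and 1.01 for Cd5 (0.847 to 1.21). Within helper T cells it was 1.05 (0.746 to 1.50) and 1.28 (0.953 to 1.74), and within naive CD8 T cells it was 1.05 (0.605 to 1.96) and 1.02 (0.534 to 2.19). NK-gene T cells differed between the 2 receptors: the Cd5 level was 106 CPM in Early and 61.9 CPM in Advanced, a ratio of 0.582 (0.451 to 0.761), and the Cd6 ratio was 0.821 (0.632 to 1.08). A single Early cell held 19 of the 70 Cd5 UMIs of that subset, and without the top cell of each library the ratio was 0.689 (0.514 to 0.941). Without the 5% of cells with the most UMIs it was 0.701, with an interval of 0.452 to 1.15 that holds 1.

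**Figure D4:**
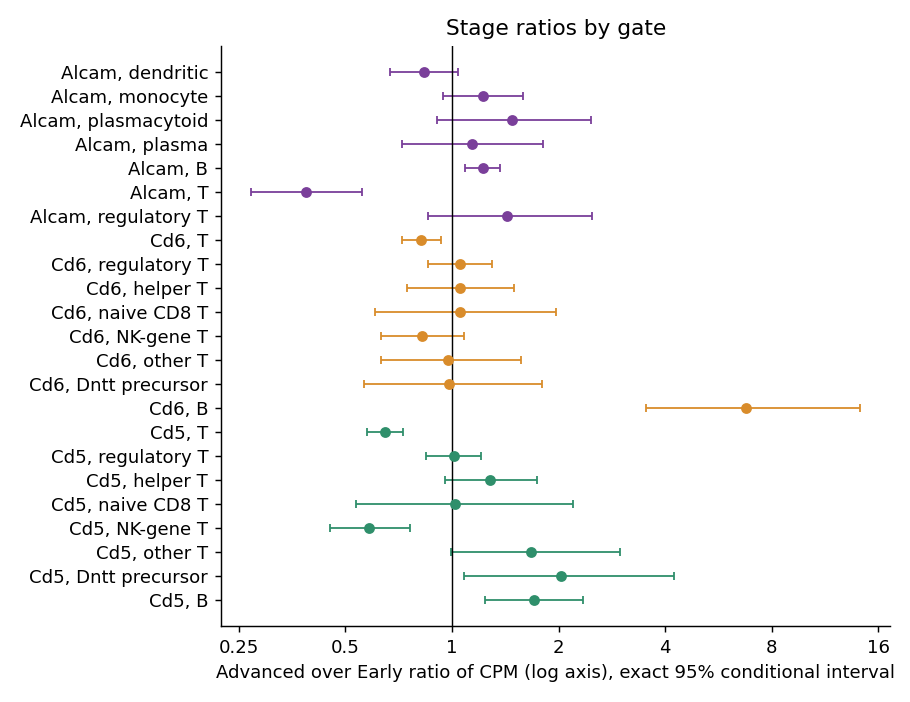
Advanced over Early ratio of the level of each gene in each gate, on a log axis, with exact 95% conditional intervals for counting error and a line at 1. The Cd6 and Cd5 ratios lie below 1 for the whole T gate, at 0.818 and 0.647, near 1 in regulatory T cells, at 1.05 and 1.01, and above 1 in B cells, at 6.75 and 1.70. The part of T cell RNA in the B cell ratios was not tested.

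Outside T cells the receptors were sparse. B cells had 11 Cd6 UMIs in Early and 65 in Advanced, 0.191 and 1.29 CPM, a ratio of 6.75 (3.53 to 14.2). In the same B cells the Cd3 markers of the T gate were at 2.75 CPM in Early and 15.7 CPM in Advanced, and the T gate held 164 and 1111 cells. Cd5 in B cells was 1.18 CPM in Early and 2.01 CPM in Advanced, a ratio of 1.70 (1.24 to 2.34). The part of T cell RNA in the Cd6 and Cd5 ratios of B cells was not tested. The Bhlhe41 B cells had 6.51 CPM of Cd5 in Early, from 7 UMIs in 3 cells, and 5.00 CPM in Advanced, from 10 UMIs in 8 cells. This was 6.45 times (2.48 to 14.2) and 2.67 times (1.24 to 5.16) the level of the remaining B cells, whereas their Cd6 UMIs numbered 0 and 3. The joined monocyte, dendritic, plasmacytoid and macrophage cells had 0.869 and 2.79 CPM of Cd6 and 4.64 and 5.22 CPM of Cd5. The B cell level of Cd5 was 0.255 times (0.146 to 0.472) and 0.384 times (0.254 to 0.599) theirs. For Cd6 the ratio was 0.464 (0.265 to 0.859) in Advanced and 0.220 (0.0582 to 1.23) in Early, where the joined cells held 3 UMIs in 2 cells and the interval holds 1. The Cd5 level of the Bhlhe41 B cells lay within the counting intervals of those joined cells, 2.65 to 7.53 CPM in Early and 3.52 to 7.45 CPM in Advanced. Of the 12 Advanced monocyte Cd5 UMIs, 10 lay in 1 cell.

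Cd6 and Cd5 were often found in the same T cells. Among T cells, 45.7% of Early and 34.4% of Advanced cells had a UMI of both, where independent detection at the same rates gives 40.4% and 29.5%. Deeper cells are likelier to show both, and with each cell thinned to 3000 UMIs in 1 draw the shares were 13.8% and 8.43%, against 9.18% and 5.83%. In the 107 thinned Advanced naive CD4 T cells, 18.7% had both against 13.3%, and in the 468 thinned Advanced NK-gene T cells 4.91% against 3.55%. Among Early regulatory T cells 55.6% had both, unthinned, against 58.2%, but thinned the shares were 24.6% against 19.5%. The 14 thinned Early naive CD8 T cells went the other way, at 0% against 1.02%. At these depths a T cell without a UMI of either gene cannot be called negative.

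Ly6c1 and Ly6c2 encode Ly6C, which is known to run opposite to CD5 in naive CD4 T cells, and divided the naive cells of the Advanced library further. Naive CD4 T cells without a Ly6c UMI had 147 CPM of Cd5 in 62 cells, and those with one had 129 CPM in 46 cells, a ratio of 1.14 (0.802 to 1.62). In naive CD8 T cells the order was turned: Cd5 was 41.9 CPM in the 90 cells without a Ly6c UMI and 78.8 CPM in the 70 cells with one, a ratio of 0.532 (0.351 to 0.797). Cd6 gave 0.827 (0.587 to 1.16) and 0.805 (0.579 to 1.12) in the same splits. The cells with a Ly6c UMI were deeper, at medians of 10146 against 8250 UMIs in CD4 and 12018 against 10328 in CD8.

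The gene whose level over T subsets was most like that of Cd6 was Cd5. Over 11 profiles of a T subset in a library, each of at least 20 cells, the Pearson correlation of log2(CPM + 10) was 0.95. Taldo1, an enzyme of the pentose phosphate pathway, followed at 0.93, Cd28, the main costimulatory receptor of T cells, at 0.92, and Exoc3 and Sypl, both of vesicle traffic, at 0.91, among 3682 genes compared. For Cd5 the closest were Ube2j1, a ubiquitin-conjugating enzyme, at 0.97, Cd6 at 0.95, and St3gal1, Malsu1 and Cd28 at 0.93. For Alcam over 29 profiles of all gates the closest of 5383 genes were Cyb5r3, at 0.84, Cst3, the cysteine protease inhibitor that dendritic cells make in quantity, at 0.83, Ccdc88a at 0.82, Mvp at 0.80 and Anxa7 at 0.79. The profiles share 2 libraries and their depth, and subsets of 1 library are not independent.

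Among the ligands and partners of the 3 proteins, 11 with Alcam, 9 passed the minimum of 20 UMIs in monocytes and 10 in dendritic cells. In monocytes 6 of the 9 were above 1 and 3 below, none past 2-fold, with a median of 0.04 on the log2 scale beside 0.03 for all genes. L1cam, an adhesion molecule that can bind ALCAM, was 78.2 CPM in Early and 108 CPM in Advanced monocytes, a ratio of 1.38 (1.10 to 1.72). Adam17, the protease that sheds ALCAM from the surface, was 130 and 95.6 CPM, a ratio of 0.733 (0.602 to 0.893), and Cd9, a tetraspanin, was 190 and 247 CPM, a ratio of 1.30 (1.13 to 1.50). In dendritic cells, whose mix of kinds also differed between the stages, 4 of 10 were above 1 and 6 below, with a median of -0.15. There L1cam was the furthest from 1, at 13.6 and 29.7 CPM, with an Advanced over Early ratio of 2.19 (1.29 to 3.94), and Cd72, a B cell protein proposed as a CD5 ligand, was 22.4 and 35.9 CPM. Cdcp1, the other known ligand of CD6, had 0 UMIs in Early and 3 in Advanced monocytes, and 8 and 18 UMIs in dendritic cells, 6.39 and 6.52 CPM.

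Alcam was also set beside 14 further costimulation and adhesion ligands. In dendritic cells 12 of the 13 that passed were below 1, Alcam among them, where 48.5% of all 9275 genes were. Their median was -0.24 beside 0.02 for all genes. Mature dendritic cells were 33 of the 60 Early and 83 of the 119 Advanced cells of the gate. The part of this change of mix in the ratios was not tested. Of the 13, 2 were past 2-fold, both downward, where 2.56% of the 9275 genes were past 2-fold downward. These were Nectin2, from 14.4 to 4.71 CPM, and Pdcd1lg2, which encodes PD-L2, from 13.6 to 3.62 CPM. Cd80, a ligand of CD28, was 19.2 and 10.5 CPM. In monocytes 6 of 12 were above 1, with a median of 0.00 after rounding. Only Pvr, from 12.4 to 5.08 CPM, was past 2-fold there, where 5.64% of 8847 genes were. Icosl, the ICOS ligand, was 15.5 and 27.7 CPM and Tnfsf9 was 6.20 and 10.6 CPM. In B cells 10 of 13 were above 1, with a median of 0.13 beside 0.09, while 29.9% of all 13582 genes were below 1. With TMM factors 7 of the 13 were above 1, while 50.6% of all genes were below 1. Only Cd70, from 6 to 23 UMIs, was past 2-fold in B cells, where 4.73% of all genes were. In the same cells Tnfsf9 was 1.46 and 2.31 CPM and Cd80 was 1.29 and 2.01 CPM.

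On the T cell side, the list of 16 costimulation and adhesion receptors that holds Cd6 and Cd5 had 4 members above 1 and 12 below, 4 past 2-fold downward, and a median of -0.61 on the log2 scale beside -0.19 for all genes of the gate. Of all 11095 genes of the gate, 63.5% were below 1 and 9.04% past 2-fold downward. With TMM factors 45.0% of all genes were below 1, and the list had 5 members above 1 and 11 below, with a median of -0.36 and 2 past 2-fold, Tnfrsf4 and Tnfrsf9. Tnfrsf9 was 68.2 CPM in Early and 17.7 CPM in Advanced, Tnfrsf4, a gene also used to gate helper T cells, was 263 and 77.2 CPM, and Tigit was 5.46 and 2.43 CPM. These levels carry the same change in the mix of T cells as Cd6 and Cd5. Of 17 signalling partners of CD6 and CD5, 6 were above 1, 11 below and 0 past 2-fold, with a median of -0.29, and with TMM factors 8 were above 1 and 9 below, with a median of -0.04. Lcp2, which encodes the SLP-76 adaptor that CD6 recruits, was 113 and 71.0 CPM, the kinase gene Zap70 was 99.8 and 66.2 CPM, and the adaptor gene Grap2 was 76.8 and 120 CPM.

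Of 8 genes that respond to the T cell receptor, 4 were above 1 and 4 below, with a median of 0.07. Nr4a1 was 13.6 and 25.1 CPM and Egr1 was 15.6 and 26.3 CPM. Irf4, at 24.6 and 9.43 CPM, was the only member past 2-fold, where 14.7% of the 11095 genes of the gate were. With TMM factors 5 were above 1 and 3 below, and Nr4a1 and Egr1 were past 2-fold upward as well. Of the 11095 genes of the gate, 1002 were then past 2-fold upward and 631 downward. Of 9 genes of the scavenger receptor cysteine-rich family, 8 were listed, and in T cells Cd6 and Cd5 were the 2 that passed the minimum. In monocytes the 2 that passed were Marco, a scavenger receptor of sinus macrophages, with 17 UMIs in Early and 3 in Advanced, 10.5 and 1.38 CPM, and Msr1, at 27.3 and 22.2 CPM.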

How the data were processed

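Single-cell suspensions of pooled PLNs were sorted as nucleated live cells and sequenced with 10x Genomics 3′ chemistry. The deposited values are counts: whole-number UMIs per gene and barcode, not normalised or corrected for free RNA, in barcodes the authors had called as cells. The headers of these files give Cell Ranger 6.0.1. The processing notes of the submitters list Seurat 4.0.3, the mm10 build, and versions 3.1 and 3.1.0 of Cell Ranger. The version sets which reads and barcodes are counted, and the difference was not resolved.

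The libraries held 67610110 Early and 83148059 Advanced UMIs. A minimum of 200 genes per cell took out 21 Early and 18 Advanced barcodes. Gates used raw UMIs of marker genes, in most cases at least 3, and B cells also at least 0.1% of the cell's UMIs. No doublet caller was run: cells with markers of 2 lineages were set aside. UMIs were summed per gate, with exact Poisson intervals for levels, exact conditional intervals for ratios and Clopper-Pearson intervals for shares. Ratios needed 10 cells in each library, and genes 20 UMIs over both. A count of 0 was read against 3 counts. With 1 library per stage no test was run. The interval code was tested on simulated data.

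The members, gates and gene lists were chosen with earlier results of these data known. Besides the 3 genes, the text names the 5 genes closest to each over the profiles, among those of at least 50 CPM in 1 profile, and the 3 members of each list furthest from 1 per gate. Cdcp1, and the macrophage genes given in monocytes, were named after their values were seen. Alternatives were stricter and looser gates, no cell filter, other totals, TMM factors, equal weight per cell, and leaving out top cells. Analyses used Python 3.11.15, numpy 2.4.6, scipy 1.17.1, pandas 2.3.3, R 4.3.3 and edgeR 4.0.16 for TMM factors only. Positions come from GENCODE M21, and a Cd6 promoter window was not used here.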

Additional observations from a re-analysis of the deposited data

Results flagged for a closer look

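Some stage ratios moved in opposite directions in different gates, with counting intervals that lay on opposite sides of 1. For each gene the ratios are Advanced over Early, and the differences between gates were not tested, since each stage had 1 library.

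For Alcam, the ratio was above 1 in B cells (1.22), in the B cells outside the cycling and Bhlhe41 groups (1.22) and in non-classical monocytes (1.41), and below 1 in mature dendritic cells (0.722), in the T gate (0.386) and in NK-gene T cells (0.0785). The last 2 share the 24 Early UMIs found in 8 NK-gene T cells. In the B gate 29.9% of all genes were below 1, and with TMM factors the Alcam ratio there was 1.14.

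For Cd6, the ratio was above 1 in B cells (6.75) and in the B cells outside the cycling and Bhlhe41 groups (6.56), from 11 Early UMIs, and below 1 in the T gate (0.818). For Cd5, it was above 1 in B cells (1.70), in the B cells outside those groups (1.85) and in the Dntt cells (2.03, from 11 and 82 UMIs), and below 1 in the T gate (0.647) and in NK-gene T cells (0.582). The Cd3 markers in the B gate were at 2.75 CPM in Early and 15.7 CPM in Advanced. Their part in the B cell ratios of Cd6 and Cd5 was not tested.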

How the results depend on the processing

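Of 231 alternative values, 212 stayed within the counting interval of the value reported or, for counts of genes, near it. Wide intervals make this easy to meet. With each cell weighted equally, the Alcam ratio went from 1.48 to 0.938 in plasmacytoid and from 1.14 to 0.928 in plasma cells, and both are among the 212. The ratios with no cell filter repeated the reported values. The T gate ratios depended on the totals and the mix of cells. For Cd6 the ratio of 0.818 became 0.680 without the 5% of cells with the most UMIs, 0.959 with totals from which immunoglobulin, mitochondrial and ribosomal protein genes were left out, 0.974 with TMM factors, and 1.01, the other side of 1, at the Early mix of T subsets. For Cd5 the ratio of 0.647 became 0.551, 0.758, 0.770 and 0.993 under the same settings, and for Alcam 0.386 became 0.927 at the Early mix. Without the 5% of cells with the most UMIs, the Early ratio of Cd5 between regulatory and NK-gene T cells was 3.18 against 1.90 and the regulatory T cell ratio of Cd5 0.827 against 1.01, and with stricter gates the helper T cell ratio of Cd6 was 0.727 against 1.05. The cause was not tested. Thinned to 1000 UMIs, the monocyte ratio of Alcam shares was 0.388 (0.128 to 1.10) against 1.21 at 3000, and the plasmacytoid one could not be computed because no Early cell kept an Alcam UMI. With no minimum of 20 UMIs, the genes past 2-fold numbered 4287 in monocytes, 5007 in dendritic, 4632 in plasmacytoid, 6486 in T and 4693 in B cells, against 499, 695, 558, 1627 and 643. The Early mix, the Dntt split, the plasmacytoid count with Dntt cells, the gene lists under TMM factors, and the checks of the order of gates with looser gates and without top cells were chosen after seeing the data. No paired analysis was possible because each stage had 1 library. The intervals cover counting error alone, and small Early T subsets (5 to 32 cells outside the regulatory one) limit every comparison of subsets.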
